A study of Mus musculus with 45 samples.

Results

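The comparison set the 12 nucleus accumbens libraries with the highest Fos level against the 12 with the lowest, out of 45. Fos CPM (the Fos count divided by all gene counts of the library, scaled to a common depth) was put on a log2 scale after adding 1, the mean of the library's own group was subtracted, and the libraries were ranked by what was left. Both classes were thus chosen by the measured Fos level. The classes therefore cut across the study's groups, 24 of the 45 libraries were in a class, and 21 were in neither. Fos chose the classes, so its own values are given as a description with no test. What was tested is whether the other genes differed between the classes.

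RNA sequencing had been done on accumbens punches of female HDID-1 mice of selection generation S35.G37, a line bred for high blood alcohol after drinking in the dark. All mice, controls included, carried a pair of viruses injected on both sides of the nucleus accumbens at 0.5 uL each. These were rAAV2/5-CMV-Cre-GFP, with Cre under a promoter that is not specific to a cell type, and rAAV2-hSyn-DIO-hM3Dq-mCherry, a Cre-dependent muscarinic designer receptor under the neuronal synapsin promoter, which couples to Gq and responds to clozapine N-oxide (CNO). Mice had ethanol or water in daily drinking sessions for 6 weeks. For CNO mice the drug, at 1 mg/kg, was given in weeks 2 to 5, with vehicle in the weeks before (week 1) and after (week 6), and vehicle mice had no CNO at any time. Alcohol drinkers gave 12 CNO and 11 vehicle libraries and water drinkers 11 of either kind, 1 mouse per library. The age of the mice and the time from the last session to dissection were not given in the labels.

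Fos encodes a subunit of the transcription factor AP-1 and belongs to the immediate early genes, which neurons transcribe within minutes of strong synaptic input without needing new protein. Calcium and cAMP signals and the kinase ERK act on the factors CREB and SRF, which sit at the promoters of these genes. Medium spiny neurons, the output cells of the accumbens, switch on Fos, Arc and the Egr and Nr4a factors after drug, reward or stress. In tissue RNA, a few cells with much Fos and many cells with a little cannot be told apart, and neither can fewer cells of a type and less RNA per cell.

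The sequence that CREB binds, the cAMP response element, is TGACGTCA, and TGACG is its shorter core. To show what the promoters of Fos and of leading early response genes hold, the 250 bases before the RefSeq start (GRCm38.p6) follow. They are written 5′ to 3′ on the gene's strand, with every TGACG on either strand in capitals. Btg2, Dusp6 and Dusp1 had the smallest p among early response genes with a promoter in the RefSeq set used here. Arc, with a smaller p than these, had none there and is not shown. The regions are chr12:85473640-85473889 on the plus strand for Fos, chr1:134079156-134079405 on the minus strand for Btg2, chr10:99262981-99263230 on the plus strand for Dusp6 and chr17:26508473-26508722 on the minus strand for Dusp1.
Fos: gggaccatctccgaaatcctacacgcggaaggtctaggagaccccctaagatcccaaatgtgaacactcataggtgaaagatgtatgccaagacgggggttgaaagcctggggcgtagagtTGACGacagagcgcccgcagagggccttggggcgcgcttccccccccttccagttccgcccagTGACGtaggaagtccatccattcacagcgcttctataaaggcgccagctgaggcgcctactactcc
Btg2: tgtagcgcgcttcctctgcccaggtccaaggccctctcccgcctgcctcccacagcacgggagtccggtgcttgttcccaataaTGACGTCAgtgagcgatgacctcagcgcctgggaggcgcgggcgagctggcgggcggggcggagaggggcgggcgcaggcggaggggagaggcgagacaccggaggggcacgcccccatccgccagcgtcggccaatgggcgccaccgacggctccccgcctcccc
Dusp6: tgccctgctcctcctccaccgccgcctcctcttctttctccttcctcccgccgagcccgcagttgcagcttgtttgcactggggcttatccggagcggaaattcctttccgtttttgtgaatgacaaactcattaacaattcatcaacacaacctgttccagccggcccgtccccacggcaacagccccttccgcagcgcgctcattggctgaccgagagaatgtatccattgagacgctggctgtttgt
Dusp1: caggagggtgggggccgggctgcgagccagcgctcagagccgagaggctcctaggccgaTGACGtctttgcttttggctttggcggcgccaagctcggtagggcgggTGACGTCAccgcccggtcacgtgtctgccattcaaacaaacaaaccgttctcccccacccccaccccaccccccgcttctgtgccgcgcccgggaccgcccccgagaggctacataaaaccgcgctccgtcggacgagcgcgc
Btg2 and Dusp1 had the full element, which contains the core on each strand, Fos had 2 cores and Dusp6 had none in this window. Of 32851 mouse promoters of this length, 1.55% held TGACGTCA and 17.8% held TGACG on either strand. A match is a description of the letters and not evidence that the site was bound.

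Fos was measured at 14.7, 17.8 and 23.4 CPM (lowest, median and highest) in the 12 libraries of the high class, from 461 to 781 reads. In the low class it was at 5.64, 8.30 and 11.0 CPM, from 172 to 423 reads. The 21 libraries in neither class lay between 9.94 and 18.1 CPM with a median of 12.5. The class means were 18.6 ± 2.61 and 8.30 ± 1.72 CPM (SD, n = 12 each), 2.25-fold apart by construction. The spread was wide inside every group and the group means were close, at 12.3 ± 5.92 CPM in alcohol CNO (SD, n = 12), 14.4 ± 4.00 in alcohol vehicle (n = 11), 12.9 ± 3.47 in water CNO (n = 11) and 14.0 ± 4.23 in water vehicle (n = 11).

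**Figure D1:**
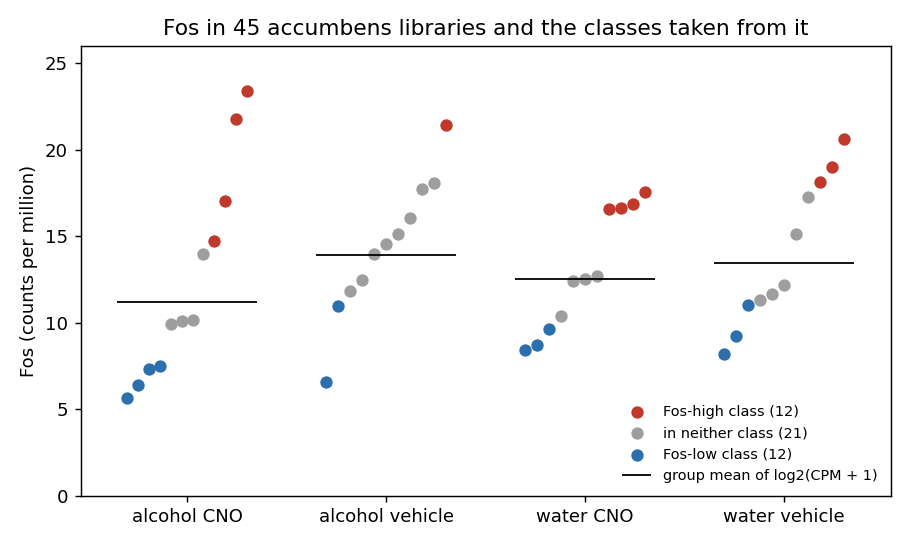
Fos in CPM (y axis) in each of the 45 libraries by group (x axis), red for the high class, blue for the low class and grey for neither; the line is the group mean of log2(CPM + 1) put back on the CPM scale. Alcohol CNO holds both the lowest library (5.64 CPM) and the highest (23.4 CPM).

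Alcohol CNO gave 4 libraries to each class, water vehicle 3 to each, water CNO 4 to the high and 3 to the low class, and alcohol vehicle 1 to the high and 2 to the low class. The farthest above its group mean was alcohol CNO replicate 11, by 1.00 on the log2 scale, and the farthest below was alcohol vehicle replicate 6, at -0.97. At the upper threshold, alcohol CNO replicate 3 was just inside at 0.363 (14.7 CPM) and alcohol vehicle replicate 5 just outside at 0.355 (18.1 CPM). At the lower threshold, water vehicle replicate 6 was just inside at -0.263 (11.0 CPM) and water CNO replicate 3 just outside at -0.252 (10.4 CPM). Near both thresholds the values were continuous, with no gap that separates the classes from the rest.

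Reads assigned to genes numbered 26839604 to 39521102 per library. Markers of medium spiny neurons were high in all 45 libraries, with Drd1 at 182 to 308 CPM, Ppp1r1b at 1133 to 1907 CPM and Penk at 883 to 1364 CPM, so the defining markers of the labelled tissue were present. Of 6 library measures (gene reads, no-feature, ambiguous and multiply aligned shares, gene symbols detected, share of the top 100 genes), none differed between the classes by a two-sided permutation test within groups, with adjusted p of 0.338 to 0.835. The high class had a mean of 18.5% and the low class 18.7% of reads outside genes. The library titles carry 1 S number each, and these numbers were cut here into 8 runs of consecutive numbers. The labels name no such runs and do not say whether they were batches. Runs 1 and 6 held no high library and run 4 no low library. Some libraries stood apart in early response genes. Alcohol vehicle replicate 6, the library farthest below its group in Fos, had the highest level of all 45 in 8 of 56 other early genes, among them Bdnf (17.0 CPM), Nptx2 (79.1), Vgf (304), Inhba (12.4), Klf10 (35.0), Gadd45b (16.8) and Egr3 (141). Alcohol vehicle replicate 5, in neither class, was the highest in 13 of the 56.

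Beside high Fos, a small set of genes rose together, and most of them are immediate early genes like Fos itself. Of 15851 other genes tested, 17 were higher in the high class and 1 was lower at a Benjamini-Hochberg adjusted p under 0.05 (edgeR's quasi-likelihood test with group as a covariate). That is 0.107% of all genes higher and 0.00631% lower, while 7.77% had an unadjusted p under 0.05 in either direction (4.36% higher and 3.41% lower), 48.8% had a positive fold change, and the median log2 fold change of all genes was -0.00. The 17 were 1.12- to 1.96-fold higher, with a median log2 fold change of 0.42. Of the 17, 11 stood on 6 lists of early response genes and 6 did not. A count of 11 higher genes came out, in place of 17, when any 1 of alcohol CNO replicates 2 and 11, alcohol vehicle replicate 4 and water vehicle replicates 3, 7 and 8 was left out. It was 20 without alcohol vehicle replicate 6, with all of the 17 among them, 7 with the S run as a covariate and 10 with a score of cortical markers as a covariate. Of the 17, those still called with the S run were Arc, Btg2, Dusp1, Dusp6, Egr1 and Junb, and the calls lost were those of Nr4a1 (adjusted p = 0.0882), Egr2 (0.246), Npas4 (0.0624), Sik1 (0.177), Fosl2 (0.253), Bhlhe40 (0.0752), Zfp536 (0.169), Bcl6 (0.0825), Dip2a (0.274), Map3k9 (0.286) and Midn (0.237).

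Arc, which encodes a protein at dendrites and synapses that removes AMPA receptors from the membrane, had the smallest p of all genes (chr15:74669083-74672570, minus strand, GRCm38). CPM after TMM scaling, the scale of all gene levels from here on, was 87.5, 109.9 and 127 in the high class (lowest, median and highest) and 39.6, 57.7 and 75.8 in the low class. No library of one class reached into the range of the other. The log2 fold change was 0.88 ± 0.08 (SE) with an adjusted p of 4.12e-06, and it lay between 0.85 and 0.93 when each of the 24 libraries was left out in turn. Only Arc and Btg2, 0.0126% of the genes tested, had classes that did not overlap with the high class above. The order held inside each group, with Arc at 90.1 to 119 CPM in the high and 39.6 to 57.7 in the low alcohol CNO libraries. In alcohol vehicle it was 115 CPM in the single high library and 55.2 to 68.6 in the 2 low ones. It was 87.5 to 111 against 57.7 to 75.8 in water CNO and 109.7 to 127 against 47.7 to 75.8 in water vehicle.

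The Egr and Nr4a families, zinc finger factors and orphan nuclear receptors induced by activity, were split. Egr1, a factor used widely as a marker of neuronal activity, was at 180.1, 214 and 305 CPM in the high class and 117, 153 and 219.9 in the low class. All 12 high libraries lay above the low median, with some overlap of the ranges, and the log2 fold change was 0.48 ± 0.08 (adjusted p = 0.00574). Egr2 had the largest fold change of the 17 at 0.97 ± 0.18 (adjusted p = 0.0175), from 4.05, 7.38 and 12.4 CPM against 2.33, 3.78 and 7.41. Its adjusted p was 0.0522 without alcohol vehicle replicate 4 and 0.246 with the S run as a covariate, and 6 of the 12 high libraries were above the whole low class. Egr3 (log2 fold change -0.03, adjusted p = 0.987) and Egr4 (0.32, adjusted p = 0.482) did not pass. Nr4a1, also called Nur77, was at 62.9, 83.4 and 106 CPM in the high class and 25.0, 47.6 and 74.6 in the low class, a difference of 0.76 ± 0.11 (adjusted p = 0.00367). Only 1 low library was inside the range of the high class. Nr4a3 (0.60 ± 0.14, adjusted p = 0.178) and Nr4a2 (0.73 ± 0.38, adjusted p = 0.683) had fold changes of similar size and wider errors, and did not pass.

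Among the AP-1 genes of the Fos and Jun families other than Fos, 2 of 5 tested were higher. Junb, which pairs with Fos proteins, was at 69.4, 80.3 and 104 CPM against 49.6, 59.1 and 75.3, with a log2 fold change of 0.42 ± 0.07 (adjusted p = 0.00917). Fosl2, which encodes the Fos relative Fra-2, was at 39.2, 46.4 and 51.3 CPM against 24.1, 33.4 and 47.1, a change of 0.40 ± 0.08 (adjusted p = 0.0259). The call of Fosl2 held in 13 of 24 single omissions. It was lost without alcohol CNO replicates 2, 6, 7 or 11, alcohol vehicle replicates 4 or 8, water CNO replicates 8 or 11, or water vehicle replicates 3, 7 or 8. Fosb, whose stable splice product builds up under repeated stimulation, was at 13.5, 18.1 and 22.4 CPM in the high class and 12.1, 15.5 and 21.6 in the low class. These ranges overlapped almost entirely, and the change of 0.18 ± 0.08 did not pass (adjusted p = 0.604). Jun (0.32, adjusted p = 0.484) and Jund (-0.00) did not pass either, and Fosl1 was too low to be tested.

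Npas4, a factor induced in neurons by calcium entry and known for its role in inhibitory synapses, was at 18.3, 30.9 and 42.8 CPM in the high class against 12.0, 14.8 and 31.1 in the low class. The log2 fold change was 0.88 ± 0.16 (adjusted p = 0.0250), and 6 of the 12 high libraries lay above the whole low class. Its call held in 16 of 24 single omissions and was lost without alcohol CNO replicates 2, 6 or 11, alcohol vehicle replicate 4, or water vehicle replicates 3, 7, 8 or 9. Btg2, an antiproliferative regulator of transcription and mRNA decay (chr1:134075170-134079120, minus strand), was at 12.5, 15.3 and 19.3 CPM against 9.18, 10.7 and 11.8. Its ranges did not overlap, and the change was 0.58 ± 0.07 (adjusted p = 5.07e-05). Sik1, a kinase that holds back CREB's coactivators, had 20.9, 22.8 and 25.6 CPM against 14.4, 19.1 and 21.2. The change was 0.30 ± 0.05 (adjusted p = 0.00574). Ier2, an early factor (0.54 ± 0.12, adjusted p = 0.142), had a fold change above that of Egr1 but lay at 2.52 to 3.92 CPM against 1.43 to 3.16 and did not pass.

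The dual specificity phosphatases that switch off MAP kinases, and so limit the ERK signal behind early gene induction, were also higher in part. Dusp6, which acts on ERK (chr10:99263231-99267489, plus strand), was at 33.9, 44.2 and 50.9 CPM in the high class and 25.5, 28.9 and 36.5 in the low class. The change was 0.52 ± 0.07 (adjusted p = 0.000464), and 11 of 12 high libraries exceeded every low one. Dusp1, a nuclear phosphatase of several MAP kinases (chr17:26505590-26562128, minus strand), was at 25.1, 28.9 and 33.0 CPM against 17.6, 21.8 and 26.8, a change of 0.45 ± 0.06 (adjusted p = 0.000753). All 7 phosphatases tested had a positive fold change, with a median of 0.28. Those that did not pass included Dusp4 (0.32 ± 0.07, adjusted p = 0.158) and Dusp5 (0.28 ± 0.08, adjusted p = 0.418).

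**Figure D2:**
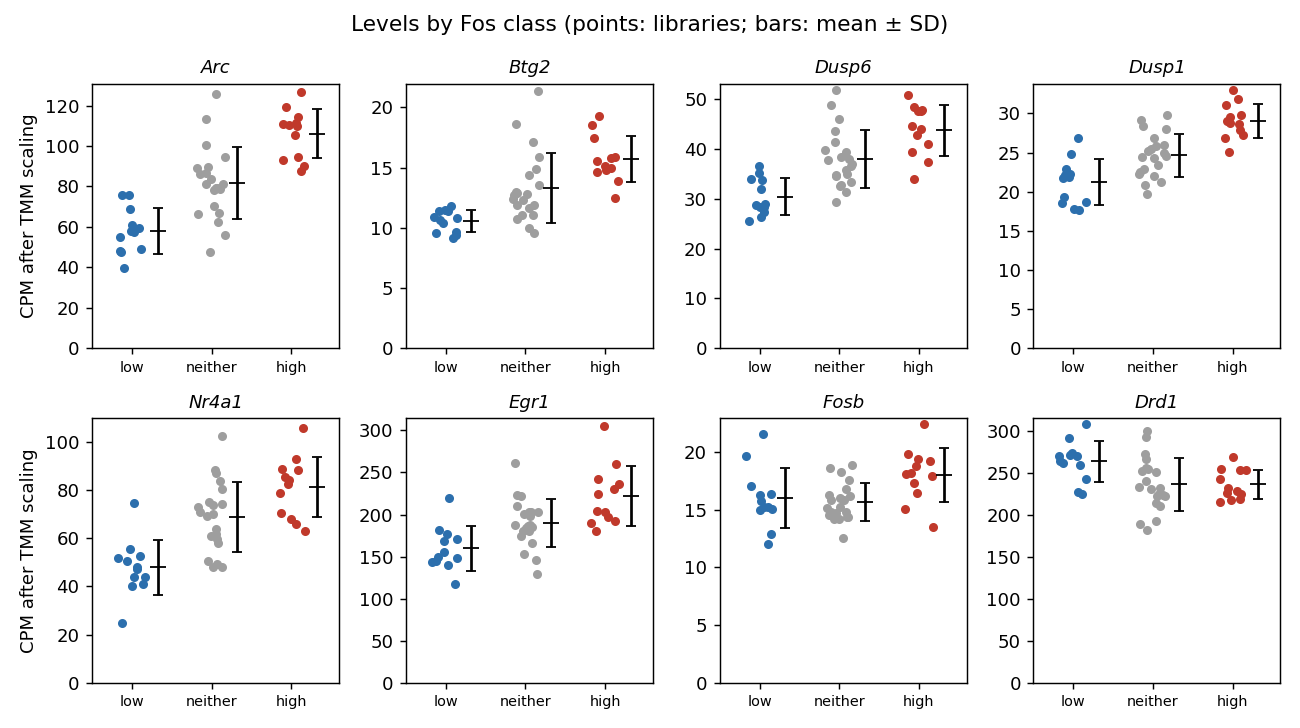
CPM after TMM scaling (y axes, from 0) of 8 genes in every library of the low class, neither class and the high class (x axes), with mean ± SD. Arc and Btg2 have separate ranges in the low and high classes, and Fosb and Drd1 overlap.

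The other 6 higher genes are not on the early response lists. Bhlhe40 encodes a transcriptional repressor of the circadian clock that is also induced by many stimuli. It was at 53.8, 59.0 and 69.5 CPM in the high class and 47.4, 50.1 and 54.6 in the low class, and its change of 0.24 ± 0.04 was small and passed (adjusted p = 0.00574). It was the single call among 16 circadian genes, and Per1, which is both a clock gene and responsive to CREB, was not called (0.15 ± 0.07, adjusted p = 0.604). Nor was Tef, also on the circadian list (-0.04 ± 0.03, adjusted p = 0.816). Zfp536, a zinc finger repressor of neuronal differentiation, was at 13.7, 16.0 and 20.5 CPM against 9.80, 12.1 and 15.4 (0.39 ± 0.07, adjusted p = 0.0122). Bcl6, Dip2a, Map3k9 and Midn fell outside the naming rule and were chosen after their values were seen. Their changes were 0.24 ± 0.05 for Bcl6 (a transcriptional repressor, adjusted p = 0.0347), 0.16 ± 0.03 for Dip2a (0.0408), 0.23 ± 0.05 for Map3k9 (a mixed lineage kinase, 0.0438) and 0.26 ± 0.05 for Midn (the midnolin gene, 0.0494). The calls of these 4 held in 7, 7, 4 and 5 of the 24 single omissions.

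Sstr5, a somatostatin receptor coupled to Gi, was the 1 lower gene. It was at 6.26, 7.50 and 9.40 CPM in the high class and 8.56, 9.71 and 12.1 in the low class. Every high library lay below the low median, and the change of -0.39 ± 0.06 passed (adjusted p = 0.00721). It passed in every single omission, with adjusted p up to 0.0209, by DESeq2 and voom, and for 16 against 16 libraries. By edgeR it reached 0.0563 with the S run and 0.0652 with the cortical score as a covariate, and 0.0991 with all 45 libraries in 3 classes. It was 0.337 for the slope over all 45, 0.459 for 8 against 8 libraries and 0.487 with Fos not centred. Nor did it pass in alcohol drinkers, water drinkers, CNO mice or vehicle mice alone.

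For Junb, Dusp1, Bhlhe40, Bcl6 and Dip2a an exon overlaps a gene on the other strand in GENCODE M21, and the strand setting of the counting was not given in the sources used here, so reads of the pair cannot be separated with certainty. Gm37419 beside Bcl6 and Gm16240 beside Dip2a were not analysed here. The counted partners were not called, with log2 fold changes of 0.02 for Prdx2 beside Junb, -0.01 for Ergic1 beside Dusp1 and 0.02 for 0610040F04Rik beside Bhlhe40. Fos, Arc, Btg2, Dusp6, Nr4a1, Egr1, Egr2 and Npas4 had no overlapping exon of another gene.

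Most early response genes had a positive fold change, and most did not pass. Of 58 symbols on the 6 early lists, 56 were tested, all but Fosl1 and Ccn1, which is another name of the tested Cyr61. Of these, 11 were higher and 0 lower in the high class (19.6% higher, against 0.107% of all genes). A positive fold change was found for 48, and the median was 0.19 against -0.00 for all genes. Of the 56, 29 were higher and 0 lower at an unadjusted p under 0.05, against 4.36% and 3.41% of all genes. Negative values were found for Nptx2 (-0.14), Sgk1 (-0.09), Rgs4 (-0.08), Inhba (-0.05), Rgs2 (-0.05) and Egr3 (-0.03), among others. The high and low medians were close for Nptx2 (23.6 and 24.9 CPM) and Inhba (4.93 in both). Alcohol vehicle replicate 6, a low library, had the highest level of both genes. The lists differed in their medians, at 0.32 for the 5 AP-1 genes, 0.40 for the 4 Egr genes, 0.73 for the 3 Nr4a genes, 0.15 for 19 other early factors and 0.06 for 18 effectors of synapse and extracellular space. The effectors held the 1 call of Arc, while Homer1 (0.07), Plk2 (0.01) and Bdnf (0.47 ± 0.40, adjusted p = 0.858) were not called.

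Genes of the later response and of the upstream pathway were not called. Of 15 delayed genes, 0 passed and 11 had a positive fold change, with a median of 0.07 and 2 higher at an unadjusted p under 0.05. The smallest p was that of Gpr3, a constitutively active receptor that raises cAMP (0.45 ± 0.10, adjusted p = 0.0803). Of 31 genes of calcium, cAMP and ERK signalling, 0 passed, 9 had a positive and 22 a negative fold change, the median was -0.03, and at an unadjusted p under 0.05 there were 2 higher and 6 lower, where all genes had 4.36% and 3.41%. In the 21 libraries in neither class 25 of these 31 genes had a positive slope on Fos. Adcy5, the main striatal adenylyl cyclase, was at -0.15 ± 0.05 (adjusted p = 0.482) and Elk4, a partner of SRF, at 0.20 ± 0.07 (adjusted p = 0.515). Rasgrp2, an activator of small G proteins in striatal neurons, was at -0.21 ± 0.06 (adjusted p = 0.457).

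**Figure D3:**
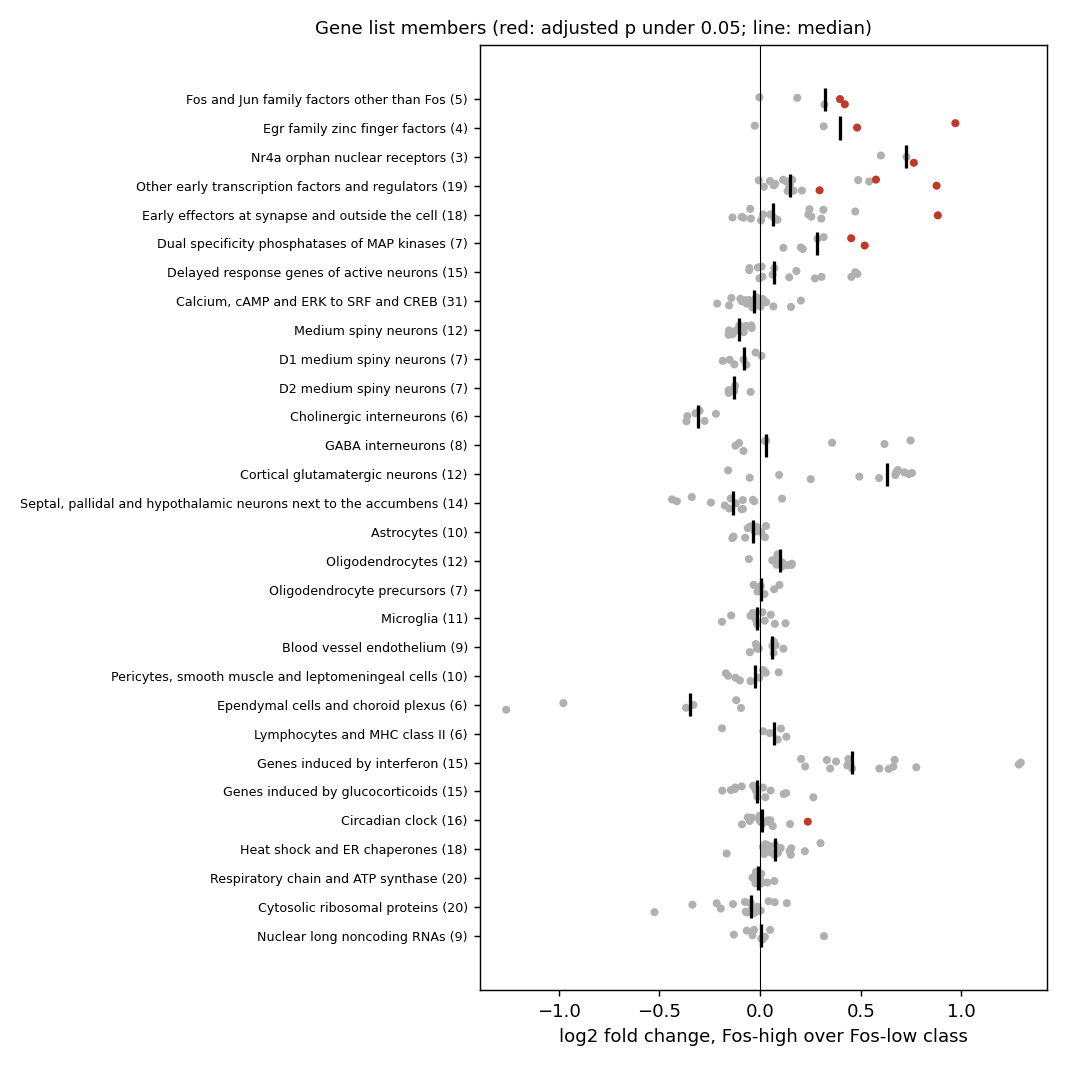
Log2 fold change of the high over the low class (x axis) for each tested member of the gene lists (rows, number of tested members in brackets); red points passed an adjusted p under 0.05, and black ticks are medians. The red points lie in the 6 early response rows and, for Bhlhe40, in the circadian row.

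The 21 libraries in neither class gave an independent set of mice in which Fos varied less, from -0.252 to 0.355 around the group means. There, the log2 level of each gene was fitted against the group-centred Fos level with group as a covariate. A slope of 1 thus means that a gene doubled when Fos CPM plus 1 doubled. Arc had a slope of 1.08 ± 0.16 (SE) and was the single gene that passed (adjusted p = 0.0253, or 0.00631% of the genes tested). The slope stayed between 0.91 and 1.15 in each of 21 single omissions, and the adjusted p, between 0.00806 and 0.469, was under 0.05 in 14 of them. The call was lost without alcohol CNO replicates 4 or 10, alcohol vehicle replicate 5, water CNO replicate 3, or water vehicle replicates 1, 2 or 11, and 0 genes passed then by edgeR.

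Other genes of the 17 had slopes with larger errors, none of which passed over all genes. Of the 17, 15 had a positive slope and 8 a positive slope with an unadjusted p under 0.05, with a median of 0.39. The shares over all genes were 53.5% positive and 1.12% positive with an unadjusted p under 0.05, and the median slope was 0.01. Npas4 had a slope of 1.46 ± 0.61 (unadjusted p = 0.0268), Egr2 1.16 ± 0.36 (0.00449), Bhlhe40 0.69 ± 0.21 (0.00327), Nr4a1 0.60 ± 0.28 (0.0417), Egr1 0.54 ± 0.19 (0.0101) and Junb 0.42 ± 0.15 (0.0108), all by edgeR. Btg2, with separate ranges in the classes, had 0.52 ± 0.28 (unadjusted p = 0.0780). Sik1 was at 0.10 ± 0.16, and Zfp536 (-0.48 ± 0.40) and Dip2a (-0.11 ± 0.12) had negative slopes. Sstr5 had a slope of 0.02 ± 0.32, so its lower level was not seen again in these mice, within a wide error. Some genes not called between the classes had slopes with a small unadjusted p, among them Fosb (0.53 ± 0.13, 0.000805) and Trib1, a pseudokinase gene (1.07 ± 0.27, 0.000828). Of the 56 early genes, 49 had a positive slope, with a median of 0.34, and 15 a positive slope with an unadjusted p under 0.05. Alcohol vehicle replicate 5, farthest above its group in Fos among these libraries (0.355), had the highest level of all 45 in 13 of the 56. Trib1 (20.1 CPM) and Bhlhe40 (80.0) were also highest of all 45 there, while Fosb (16.0) and Npas4 (15.6) were not. The part of this library in the slopes of genes other than Arc was not tested.

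**Figure D4:**
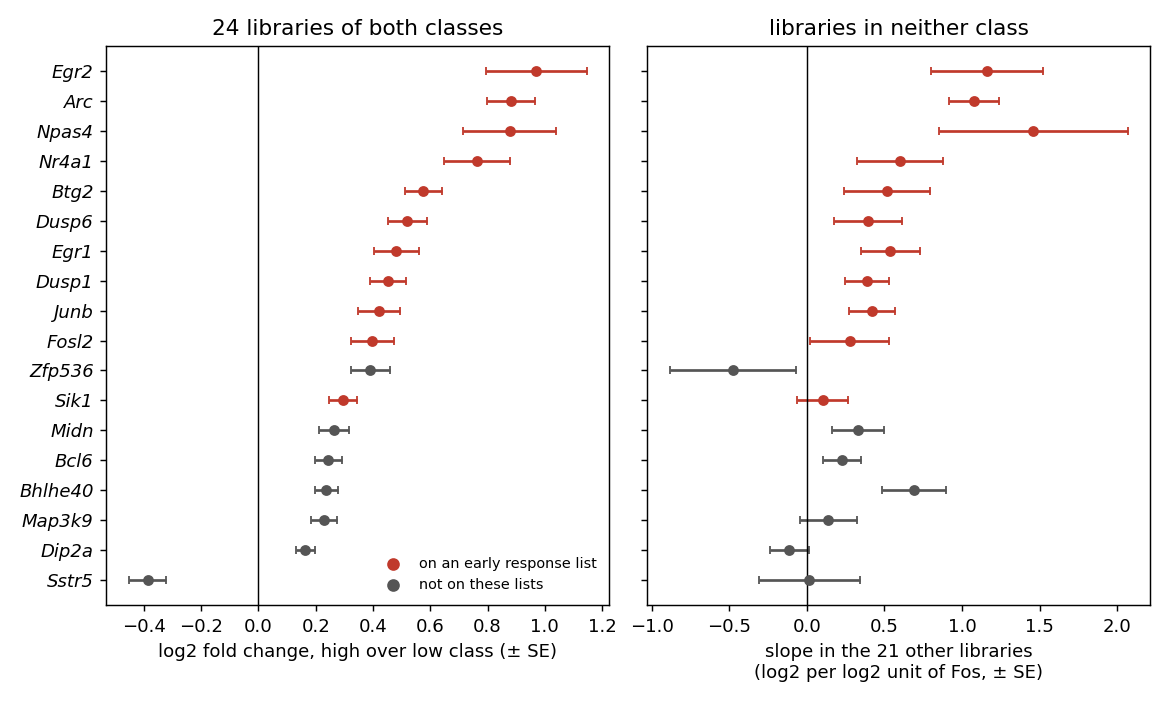
Left, log2 fold change of the high over the low class ± SE (x axis) for the 18 genes called (rows), with early response genes in red; right, the slope of the same genes on Fos ± SE in the 21 libraries in neither class. Arc is at 0.88 on the left and 1.08 on the right, while Zfp536, Dip2a and Sstr5 change sign.

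Library by library, the 11 early genes that were called were averaged. Their mean deviation from the group mean, on the log2 scale, was 0.15 to 0.59 in the high class (median 0.28) and -0.55 to 0.00 in the low class (median -0.28), and in the libraries in neither class it ran from -0.30 to 0.32. These genes were called between the same classes, so that separation is a description. Over all 56 early genes the mean deviation was -0.03 to 0.24 in the high class, -0.31 to 0.06 in the low class and -0.21 to 0.26 in neither class, so the classes overlapped. The top value of the low class was that of alcohol vehicle replicate 6, the lowest in group-centred Fos, next to water vehicle replicate 6, also at 0.06. Alcohol CNO replicate 6, with the lowest Fos CPM, was the lowest of all 45 libraries in 6 of the 17 genes. Alcohol vehicle replicate 5, just outside the high class, was the highest in 3 of them, Btg2, Dusp6 and Bhlhe40.

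**Figure D5:**
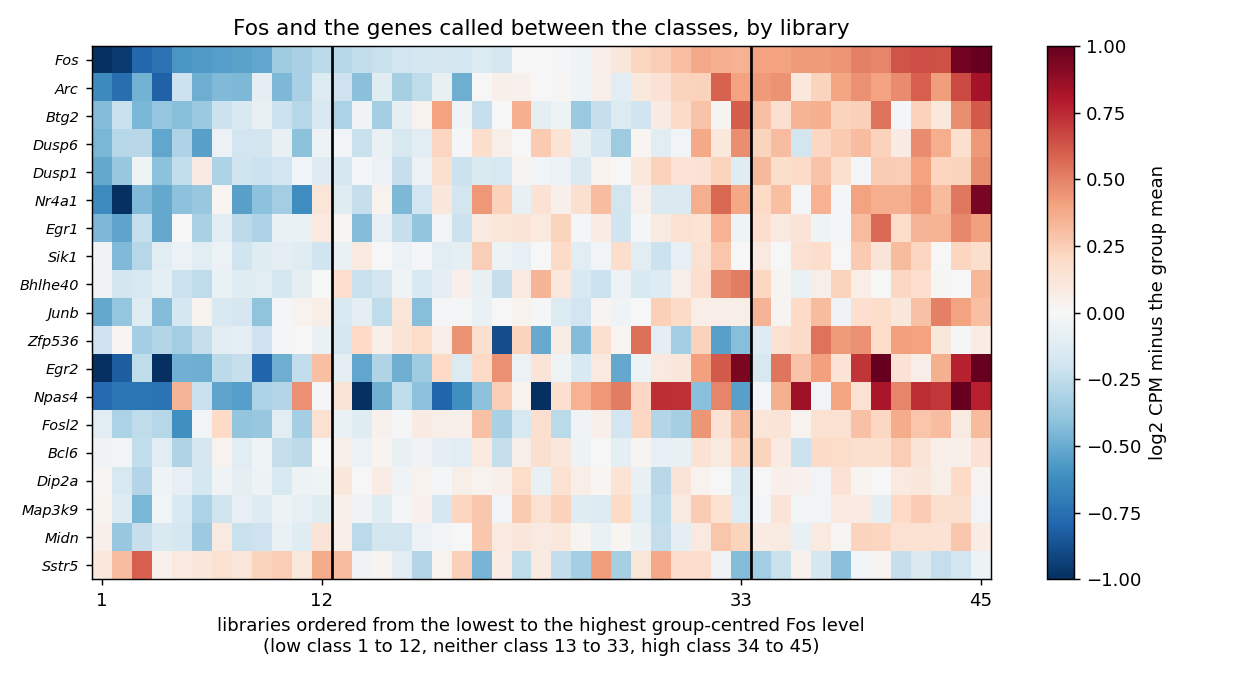
Log2 CPM minus the group mean (colour, which saturates at 1 and -1) for Fos and the 18 genes called (rows) in the 45 libraries ordered by group-centred Fos from the lowest to the highest (x axis); black lines bound the classes of 12. Arc is below its group mean in all 12 low libraries and above it in all 12 high ones, and Zfp536 and Sstr5 show no order between the lines.

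The comparison was also made inside the study's conditions. All 17 genes had a higher mean in the high than in the low libraries in each of the 4 groups, a description since the groups together gave the calls. With few libraries, fits on alcohol drinkers, water drinkers, CNO mice and vehicle mice alone called 1, 4, 3 and 0 higher genes, with 542 genes at an unadjusted p under 0.05 in either direction in vehicle mice. Arc's log2 fold change in vehicle mice alone was 0.90 (adjusted p = 0.141). The difference of the Fos class association between alcohol and water drinkers passed for 0 genes by edgeR, with 3.82% of genes at an unadjusted p under 0.05, and for 0 genes by voom. Between CNO and vehicle mice it passed for 0 genes by edgeR, with 1.99% at an unadjusted p under 0.05, and for 0 by voom. For Arc the difference between fluids was 0.25 ± 0.16 (alcohol minus water, unadjusted p = 0.136).

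No cell type marker passed between the classes, and for some lists most members had fold changes of one sign, against 48.8% positive over all genes. Of 12 markers of cortical glutamatergic neurons, which lie next to the dissected region, 10 had a positive fold change with a median of 0.63, 0 passed, and at an unadjusted p under 0.05 there were 2 higher and 1 lower. Their summed level was 656 to 1293 CPM in the high class and 453 to 1203 in the low class. Slc17a7, the vesicular glutamate transporter of those neurons, was at 172, 384 and 573 CPM in the high class and 38.1, 248 and 470.2 in the low class. No defining marker was at 0. In the libraries in neither class 11 of the 12 had a positive slope on Fos (median 0.37), against 53.5% of all genes. With the cortical score as a covariate Arc still differed by 0.85 (adjusted p = 0.000142), and Bhlhe40 (0.0882), Zfp536, Fosl2, Bcl6, Dip2a, Map3k9 and Midn no longer passed.

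Medium spiny neuron markers had small negative fold changes, which for the shared and D2 lists did not recur in the libraries in neither class. All 12 shared markers had a negative fold change (median -0.10, 0 passed, 5 lower at an unadjusted p under 0.05), as did 6 of 7 markers of D1 neurons (-0.08) and 7 of 7 of D2 neurons (-0.13). At that unadjusted p, 1 D1 and 4 D2 markers were lower, where 3.41% of all genes were. In the libraries in neither class 9 of the 12 shared markers and 4 of the 7 D2 markers had a positive slope on Fos (medians 0.03 and 0.02), and 1 of the 7 D1 markers (-0.16). Summed, the shared markers were at 8946 to 10685 CPM in the high class and 8673 to 12158 in the low class. Drd1, the dopamine receptor of the direct pathway, was at 215, 229.9 and 269 CPM in the high class against 224, 266 and 308 (-0.15 ± 0.05, adjusted p = 0.484). Drd2 (-0.12), the neuropeptide genes Pdyn (-0.13), Penk (-0.13) and Tac1 (-0.07) and the muscarinic receptor gene Chrm3 (0.39 ± 0.31, adjusted p = 0.840) did not pass. Cholinergic interneuron markers were negative in 6 of 6 (median -0.31, 0 passed, 4 lower at an unadjusted p under 0.05), with Chat at -0.37 ± 0.11 (adjusted p = 0.418). Outside the classes 2 of these 6 had a positive slope. Markers of ependymal cells and choroid plexus were negative in 6 of 6 tested (median -0.35), and those of septum and pallidum in 13 of 14 (-0.13), with positive slopes outside the classes for 2 of 6 and 1 of 14. Of these 2 lists, 4 and 2 markers were lower at an unadjusted p under 0.05. The part that these markers play in the results was not tested beyond the cortical covariate.

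Glia, immune and stress genes gave no calls. Genes induced by interferon were positive in 15 of 15 with a median of 0.46, 0 passed and 4 were higher at an unadjusted p under 0.05. Their summed level was 54.5, 75.4 and 625 CPM in the high class and 39.7, 94.0 and 213 in the low class, so the median was lower in the high class. The 625 CPM was that of water vehicle replicate 9, and in the libraries in neither class 4 of the 15 had a positive slope (median -0.38). Among those libraries, alcohol vehicle replicates 5 and 10 had sums of 773 and 671 CPM, above every library of the classes. Without water vehicle replicate 9, the high library left out for its interferon and other immune genes, 15 genes were higher and 1 lower. Oligodendrocyte markers were positive in 11 of 12 (median 0.10), while in the libraries in neither class 0 of 12 had a positive slope. Between the classes 4 of the 12 were higher at an unadjusted p under 0.05, where 4.36% of all genes were. Astrocytes (-0.04), microglia (-0.02), oligodendrocyte precursors (0.00) and genes induced by glucocorticoids (-0.01) had medians near that of all genes. Outside the classes all 11 microglia markers had a positive slope on Fos (median 0.49), 2 of 10 astrocyte markers, 1 of 7 precursor markers and 6 of 15 glucocorticoid genes. All 6 tested markers of lymphocytes and MHC class II had a positive slope there (median 2.98), with a median fold change of 0.07 between the classes. The part of alcohol vehicle replicates 5 and 10 in these slopes was not tested. Heat shock and chaperone genes were at a median of 0.07, with 17 of 18 positive, and 15 of 18 had a positive slope outside the classes.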

How the data were processed

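RNA was sequenced from 45 nucleus accumbens libraries. Each deposited file holds unnormalized read counts by gene symbol for 1 library, as whole numbers. The submitters' processing notes list FastQC, STAR, HTSeq 0.9.1 and GRCm38 (mm10) for the authors' work. How HTSeq treated strand and which annotation it used is not given in the sources used here, and a symbol shared by near-identical copies cannot be split. The files list 24421 symbols and HTSeq's 5 summary rows, which stayed out of library sizes and tests and served as library measures (no-feature share 18.5% and 18.7% on average in the high and low classes). Groups come from the labels, and each library is a different mouse.

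Genes passed edgeR's filterByExpr over the 4 groups (15852, Fos among them) and were scaled by TMM. The classes followed the CPM rule. Fos was left out of tests and adjustment, and 15851 genes were fitted over the 24 class libraries with group and class (edgeR 4.0.16, R 4.3.3, glmQLFit with robust fitting, Benjamini-Hochberg adjusted p under 0.05). The same model took the Fos level in place of the class for the 21 other libraries, and a class-by-fluid or class-by-treatment term for the interactions. Standard errors are the size of the log2 fold change over the square root of F. Levels are CPM after TMM scaling except for Fos, which follows the CPM rule. Log2 CPM used a prior count of 2. Library measures were compared with 100000 permutations of the class within groups (Python 3.11.15, numpy 2.4.6), adjusted over 6 measures.

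The genes named were the 10 higher and the 10 lower with the smallest p at a mean log2 CPM of at least 0, the members of the early lists that passed, the 3 members with the smallest p of other lists with a call, and 14 genes whatever their result. The classes, 31 lists and tests were chosen with earlier results of these data known. On simulated counts for the 24-library comparison (15851 genes, 50 changed per fold), the fit recovered 58% at 1.25-fold, 84% at 1.5-fold, 96% at 2-fold and 100% at 3-fold. The 15 false calls were those of the single simulation that held all these folds. Alternatives were DESeq2 1.42.0, limma's voom (3.58.1), other scalings, filters, class sizes, rankings and covariates, and single omissions. Gene positions are from GENCODE M21 and promoters from RefSeq; 13 of the 17 higher genes had a promoter there, too few for a motif count over the set. P-values of the gene tests set the class difference or slope against the spread between mice that the fit left over. Those of the library measures come from the permutations within groups.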

Additional observations from a re-analysis of the deposited data

How the results depend on the processing

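The log2 fold changes of all 17 higher genes stayed positive in every alternative, a description since the alternatives drew on the libraries that gave the calls. The number of calls moved with the samples and covariates. Single omissions aside, Arc was called in 18 of 19 alternatives, Zfp536 in 8, and Dip2a and Map3k9 in 7 each. Higher genes numbered 17 with DESeq2-style size factors or no filter, 16 with a mean CPM of at least 1 or voom, 26 by DESeq2 (17 of the 17 among them), 14 with all 45 libraries in 3 classes, 19 for the slope over all 45, 19 for 16 against 16 libraries, 15 with Fos not centred, 14 with Fos after TMM scaling and 21 with the no-feature share as a covariate. They numbered 7 for 8 against 8 libraries, 7 with the S run and 10 with the cortical score as a covariate, 1 in alcohol drinkers, 4 in water drinkers, 3 in CNO mice and 0 in vehicle mice (542 genes at an unadjusted p under 0.05). Lower genes numbered 2 with no filter, DESeq2 or the cortical score, 4 with the no-feature share, and 0 for 3 classes, the slope over 45, 8 against 8, Fos not centred, the S run, alcohol drinkers or water drinkers, where 897 to 1494 genes had an unadjusted p under 0.05. The causes were not tested; the smaller fits used fewer samples. Omitting each of the 24 libraries gave 11 to 20 higher and 1 to 2 lower genes, with 2 lower without alcohol CNO replicates 3 or 8, alcohol vehicle replicate 8 or water CNO replicate 9; 10 of the 17 were called in every omission. In the 21 other libraries the omissions gave 0 or 1 gene. The interaction counts stayed at 0 with voom. The library measures stayed on the same side of the threshold for 8 against 8, 16 against 16 and Fos not centred, alternatives chosen after seeing the data, as were the omissions among the 21. Ranking by TMM-scaled Fos kept 12 high and 11 low libraries, and without centring 9 and 10. Replicate numbers follow accession order. No paired analysis was possible because the labels tie no mouse of one group to a mouse of another. Small changes were recovered less often than large ones on simulated counts, so a gene without a call is not shown to be unchanged.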
